A study of Hydra vulgaris with 99 samples.

Results

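The mid-gastric body column of Hydra vulgaris was compared with the foot, that is, the tissue from which a foot regrows with the tissue it becomes. The 6 libraries of this comparison are 3 of tips taken at 0 h from the 50% level of animals cut to regrow the base, and 3 of homeostatic basal disk with lower peduncle. They were chosen by their labels, out of 99 libraries in all. All came from unmanipulated animals of the strain Jussy fed 3 times per week, and each library pooled tissue of 20 to 25 animals, so no value belongs to a single polyp.

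The study followed regenerating tips at 10 times from 0 to 48 h in 3 series. Basal regeneration from the 50% level used the lower end of the upper piece, apical regeneration from the 50% level the upper end of the lower piece, and apical regeneration from the 80% level the column left after decapitation. Homeostatic heads, feet and intact animals were sampled beside them. PolyA-selected RNA was made into directional TruSeq libraries, with replicates A, B and C in every group. The replicates are described as biological triplicates, and the p-values below measure the spread between such libraries of pooled tissue. That spread was estimated jointly over all 33 groups, not from the foot and mid-gastric libraries alone. The lower agreement among the mid-gastric libraries, given below, thus enters the p-values only in part.

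The body of Hydra is a tube with an outer and an inner epithelial layer. In the body column the epithelial cells divide continuously, and interstitial stem cells between them supply nerve cells, gland cells and the nematoblasts that mature into stinging cells. Tissue is displaced steadily towards both ends, where epithelial cells stop dividing and differentiate, in the basal disk into mucus-secreting cells that hold the animal to its substrate. After a cut in the mid-gastric region the upper piece makes a new foot from column tissue. All samples are bulk tissue, so fewer cells of a type and less RNA per cell cannot be told apart.

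The count table lists 79774 transcript sequences in 25879 loci, of which 54272 sequences in 20612 loci had enough reads to be tested. None of the identifiers matched the available gene table, so neither gene names, genomic positions nor functions are given for any sequence, and the tissue labels could not be checked against foot, head or body column markers. The 6 libraries hold 26939203 to 35445288 reads, within the range of 26401348 to 54273942 over all 99. Over 12731 well-covered sequences, log2 levels of the 3 foot libraries correlated with r from 0.965 to 0.975. Mid-gastric libraries B and C correlated with r = 0.974, but mid-gastric A reached only 0.899 with B and 0.880 with C. The mean r of mid-gastric A with its replicates, 0.889, was the second lowest of the 99 libraries, whose median was 0.963. Between a mid-gastric and a foot library r lay between 0.668 and 0.795, so the tissues stood further apart than any replicates of theirs.

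The foot and the mid-gastric column differed in 5809 of the 54272 tested sequences, or 10.7%. A sequence was called at an adjusted p under 0.05 (edgeR quasi-likelihood test, Benjamini-Hochberg adjustment over all tested sequences) and a difference of at least 2-fold. Of these, 3564 were higher in the foot (6.57% of those tested) and 2245 were lower (4.14%). They are called the foot-high and the body-column-high sequences here. With no fold minimum the balance moved to 5561 higher and 5764 lower, because 1997 higher and 3519 lower sequences passed the p threshold with less than a 2-fold difference. The median log2 difference of all tested sequences was 0.06. Summed over the sequences of a locus, 3016 of 20883 loci were called (14.4%), with 2028 higher (9.71%) and 988 lower in the foot (4.73%).

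The foot-high sequences differed by more than the body-column-high ones. Their median log2 difference (foot minus mid-gastric) was 2.08, with quartiles of 1.40 and 3.93, against -1.75 with quartiles of -2.75 and -1.29 for the body-column-high sequences. Some sequences had hardly any reads in the other tissue. In 675 foot-high sequences (18.9%) no mid-gastric library had more than 3 reads, and 372 of these had no read in any of the 3. In 295 body-column-high sequences (13.1%) no foot library had more than 3 reads, and 154 had none. For such sequences a fold is a lower bound, computed against a floor of 3 reads per library (0.0992 CPM in the mid-gastric libraries, 0.0852 CPM in the foot), where CPM is the read count over the TMM-scaled library size, times 1e6. With these sequences at their bounds the medians were 1.92 and -1.66. Counted the same way, 1686 foot-high sequences differed by 4-fold or more (47.3%), 496 by 16-fold (13.9%) and 173 by 64-fold (4.85%). Among body-column-high sequences these numbers were 782 (34.8%), 161 (7.17%) and 42 (1.87%).

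**Figure D1:**
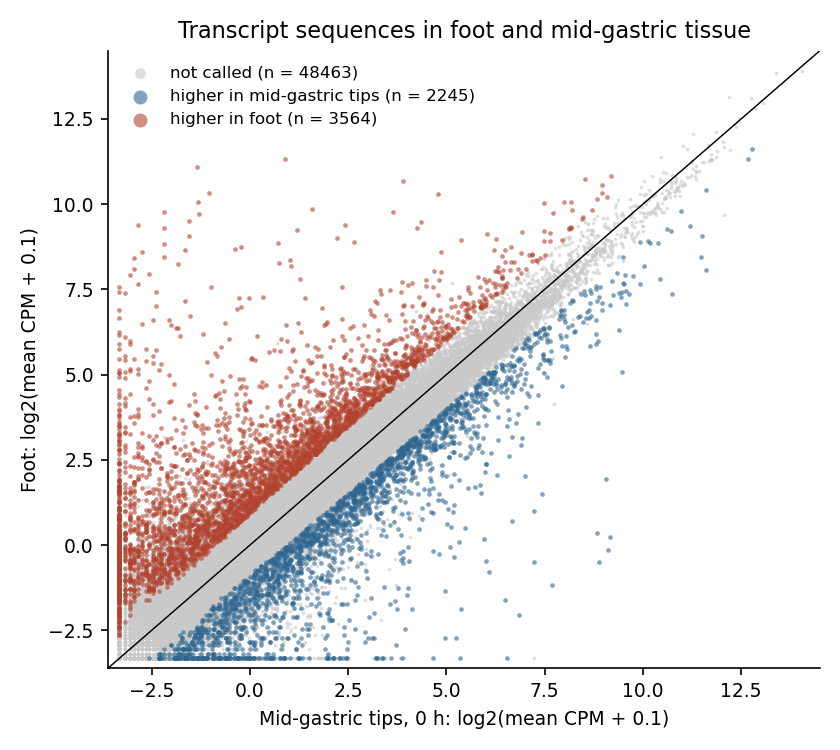
Mean level of each tested sequence over the 3 mid-gastric libraries (x axis) and the 3 foot libraries (y axis), both as log2 of CPM plus an offset of 0.1, with the line of equality. The 3564 foot-high sequences (red) include a column at the left edge with no mid-gastric reads, and the 2245 body-column-high sequences (blue) have a shorter row along the bottom.

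Most members were separate in every library. All 3 foot libraries lay above all 3 mid-gastric libraries in 3388 foot-high sequences (95.1%), where 17.9% of all tested sequences did, and all 3 lay below in 2039 body-column-high sequences (90.8%, against 14.4%). These values chose the members and are a description. At the fold limit itself, 257 foot-high sequences had a log2 difference between 1 and 1.1, and 286 others that passed the p threshold fell just short, between 0.9 and 1. On the other side 212 body-column-high sequences lay just inside and 284 just outside.

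Replicates did not contribute equally. Among the 3 foot libraries, foot A was the highest in 2163 of the 3564 foot-high sequences (60.7%, against 37.4% of all tested) and foot C the lowest in 1722 (48.3%, against 29.4%). Among the mid-gastric libraries, A was the lowest in 1895 foot-high sequences (53.2%) and the highest in 1104 body-column-high sequences (49.2%). For mid-gastric libraries no share of all tested sequences was computed. Whether mid-gastric A was extreme as often outside the members was thus not tested. Without mid-gastric A, 4715 sequences were called, of which 2476 were among the 3564 foot-high (69.5%) and 1635 among the 2245 body-column-high sequences (72.8%). Without foot A, 4705 were called. Leaving out another library of either group gave from 5334 (without foot C) to 5935 sequences (without mid-gastric C). Many members thus lost their call without mid-gastric A. Their overlap was computed for no other library, so a particular dependence of single calls on mid-gastric A or foot A was not tested.

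The foot-high sequences were mostly of moderate level. Their median was 4.27 CPM in the foot, against 1.08 CPM over all tested sequences, and 212 of them reached 100 CPM and 15 reached 1000 CPM there. Body-column-high sequences had a median of 4.73 CPM in mid-gastric tips, against 0.911 CPM over all tested, with 180 at 100 CPM or more and 16 at 1000 CPM or more. Together the foot-high sequences took 12.9%, 11.5% and 9.67% of the reads of foot libraries A, B and C, and 1.91%, 2.68% and 2.65% of the reads of mid-gastric A, B and C. The 100 most abundant of them held 6.96%, 6.28% and 4.89% of the foot reads. The body-column-high sequences took 10.7%, 11.2% and 10.8% of the mid-gastric reads and 3.14%, 3.46% and 3.82% of the foot reads. Their 10 most abundant alone held 2.99%, 3.44% and 3.23% of the mid-gastric reads, against 2.01%, 1.70% and 1.28% of foot reads for the 10 most abundant foot-high sequences.

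Sequences of one locus did not always go together. Of 11000 loci with 2 or more tested sequences, 2827 held a called one, and 140 of these (4.95%) held calls in both directions. When the reads of those 140 loci were summed, 36 were called, 19 higher and 17 lower in the foot, and the median absolute log2 difference of the sums was 0.59. Reads of near-identical sequences can be divided between them by the authors' counting, so the direction of a single sequence in such a locus is uncertain. Of the foot-high sequences 2414 lay in a locus that was itself called higher, 22 in one called lower and 1128 in one not called. For body-column-high sequences 1279 lay in a locus called lower, 20 in one called higher and 946 in one not called. Loci with a single tested sequence, where no such split can occur among tested sequences, held 864 foot-high and 448 body-column-high sequences.

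A rule named 4 sequences, in each direction 1 for the largest fold, among sequences of at least 32 CPM that are alone in their locus, and 1 for the largest difference in mean CPM. Each is the single sequence of its locus. They were chosen on the foot and mid-gastric values, which are a description, while the libraries of the later times, the head, the intact animals and the 80% level had no part in the choice.

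The sequence with the largest fold, seq26843_loc10742_vl0035264, had no read in any of the 3 mid-gastric libraries. Its levels in the foot were 222, 239 and 110 CPM in A, B and C, a mean of 190 ± 70.1 (SD, n = 3) and at least 1920-fold above the floor (adjusted p = 3.42e-09, edgeR). Heads had 0, 0.164 and 0.148 CPM and intact animals 24.1, 24.8 and 15.7 CPM. In basal tips it stood at 5.13 ± 3.46 CPM at 24 h, 27.3 ± 6.97 CPM at 36 h and 60.5, 85.8 and 58.4 CPM at 48 h. All 3 basal libraries at 48 h thus lay below every foot library and above every apical library of the same level and time, which had 0.377, 5.22 and 0.112 CPM. Single libraries stood out earlier, with 4.64 CPM in basal tips at 2 h and, in apical tips of the 50% level, 3.14 CPM at 0 h and 2.52 CPM at 1 h, while their replicates had at most 1 read. The basal and apical changes from 0.5 to 48 h were not shown to differ (log2 difference of 5.54, SE 3.71, adjusted p = 0.65, edgeR). At 0.5 h these tips had at most 3 reads per library, so that test could show little. Compared directly, basal tips were higher than apical ones at 24 h (log2 of 5.00, adjusted p = 0.00701, edgeR). They were also higher at 36 h (7.71, adjusted p = 1.27e-05) and 48 h (5.16, adjusted p = 0.000216). No difference was called at earlier times from 0.5 h on.

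The largest difference in mean CPM was that of seq03962_loc02149_vl0008526, with 1.55, 1.41 and 2.36 CPM in the mid-gastric libraries and 3270, 2830 and 1610 CPM in the foot. The log2 difference was 10.49 (SE 1.03, adjusted p = 2.64e-13, edgeR). Its mean in basal tips was 2.19 CPM at 0.5 h and 19.1 CPM at 8 h. It then went through 53.9 CPM after 16 h, 269 after 24 h and 862 after 36 h to 1390 CPM after 48 h. In apical tips of the 50% level the means were 3.94 CPM at 0.5 h, 27.3 CPM at 8 h and 56.1 CPM at 48 h. The rise from 0.5 to 8 h was called in basal (log2 of 3.12, adjusted p = 0.0137, edgeR) and apical tips (2.79, adjusted p = 0.0311). From 0.5 h on, basal tips were first called higher than apical ones at 24 h (2.51, adjusted p = 0.0265). Heads had a mean of 1.84 CPM. From 0.5 to 48 h it rose by a log2 of 9.30 in basal and 3.83 in apical tips of the 50% level, a difference of 5.47 (adjusted p = 0.00019, edgeR interaction test). The 2 h mean of 18.7 CPM rests on 1 library, at 54.2 CPM, beside 1.19 and 0.705 CPM in its replicates, and apical tips at 0 h likewise held 42.8 CPM in C beside 6.05 and 5.76 CPM in A and B.

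In the other direction, seq44859_loc16361_vl0137933 had the largest fold, from 60.7, 118 and 128 CPM in the mid-gastric libraries to 0.983, 1.43 and 2.15 CPM in the foot. The log2 difference was -6.06 (SE 0.43, adjusted p = 2.55e-19, edgeR). At 0.5 h its level fell from the upper to the lower column, with 219 ± 22.8 CPM in tips of the 80% level, 78.4 ± 2.68 CPM above the 50% cut and 21.4 ± 1.28 CPM below it. The difference between the 80% tips and the lower side of the 50% cut was a log2 of 3.35 (adjusted p = 1.4e-10, edgeR), and that between the sides of the 50% cut was 1.87 (adjusted p = 0.001). Heads had 213 ± 6.37 CPM, which did not differ from the 80% tips beyond the threshold (log2 of -0.04, adjusted p = 0.971). Over 48 h the order across the 50% cut turned. Basal tips went to 26.1 ± 10.7 CPM and apical tips to 69.6 ± 10.6 CPM, so that the apical tips were the higher (log2 of -1.41 for basal minus apical, adjusted p = 0.00194), and the changes from 0.5 h of -1.59 and 1.70 differed by -3.28 (adjusted p = 3.79e-07, edgeR interaction test).

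Among sequences lower in the foot the largest difference in mean CPM was that of seq33814_loc13050_tr0362243. It had 4650, 7740 and 7160 CPM in the mid-gastric libraries and 2830, 1830 and 3000 CPM in the foot, a log2 difference of -1.35 (SE 0.20, adjusted p = 1.74e-07, edgeR). It was lower still in heads, at 274 ± 58.3 CPM, a log2 of -4.03 against the 80% tips (adjusted p = 2.58e-25). From 0.5 to 48 h its log2 level fell by 1.18 in basal tips (adjusted p = 7.64e-06) and by 0.90 in apical tips of the 50% level (adjusted p = 0.000732), where the second change is under the 2-fold minimum. These changes were not shown to differ (-0.28, adjusted p = 0.873, edgeR).

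**Figure D2:**
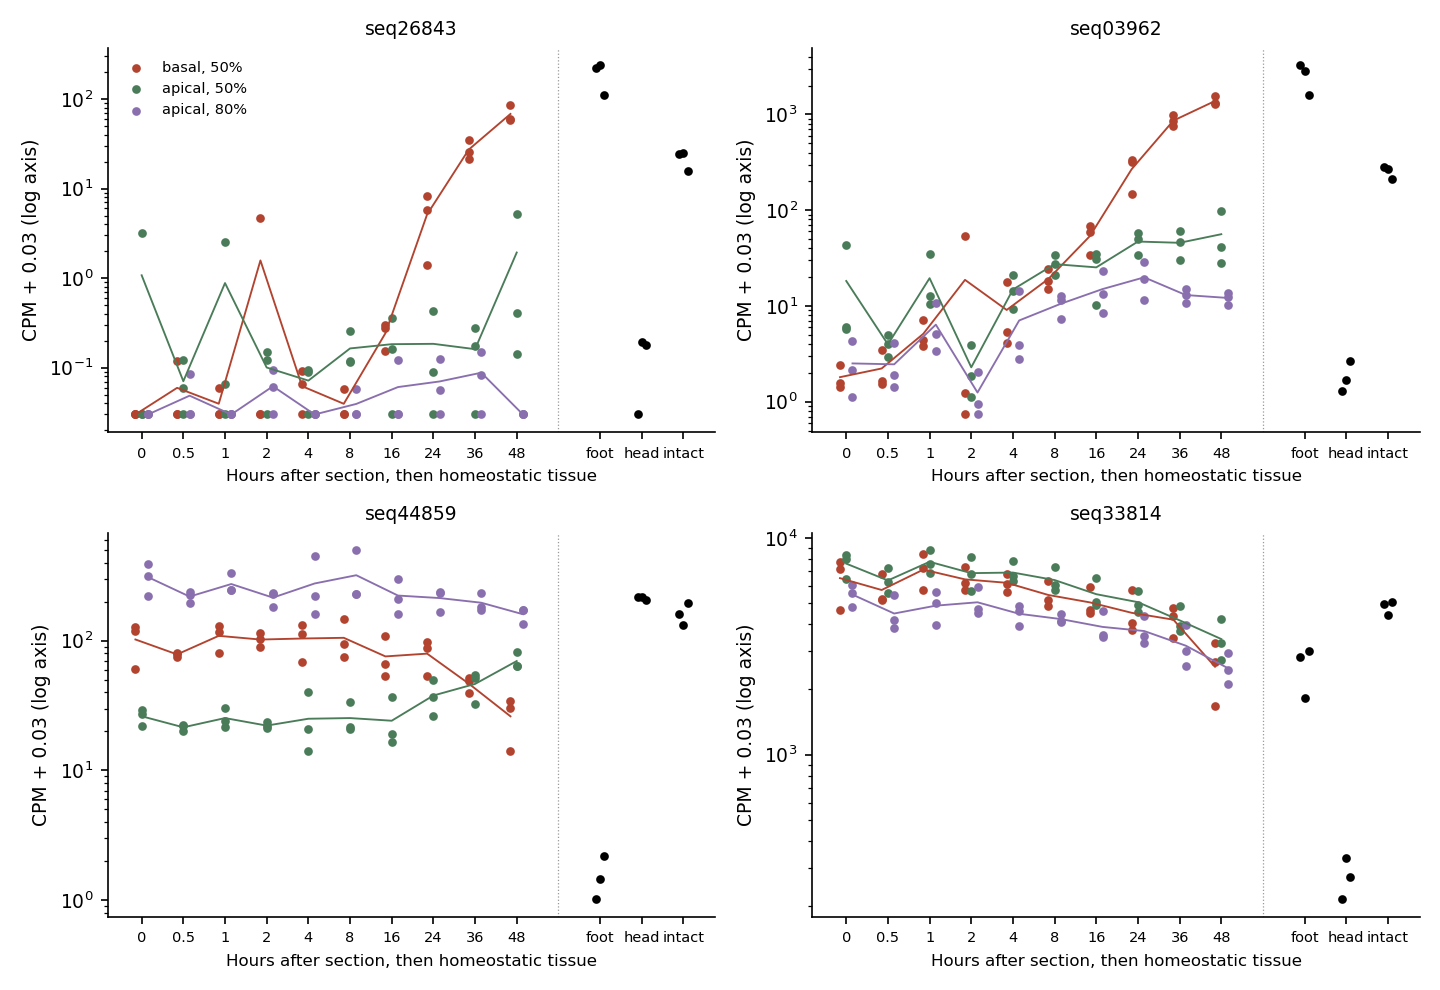
Level of the 4 named sequences in each library, as CPM plus an offset of 0.03 on log axes, over hours after section (equally spaced categories) in basal tips of the 50% level and apical tips of the 50% and 80% levels, then in foot, head and intact animals; lines join means of 3 libraries. In basal tips seq26843 climbs towards the foot level from 16 h on. There seq03962 is raised by 8 h, as it is in apical tips of the 50% level, and climbs further. Late in the course seq44859 crosses between basal and apical tips, and seq33814 is lower at 48 h than at 0.5 h in tips of the 50% level.

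The head is the other end of the axis, and its libraries had no part in choosing the members. Head was compared with 80% tips at 0.5 h, in which 9.71% of all tested sequences were higher in the head and 8.67% lower. Of the foot-high sequences 1299 were higher in the head as well (36.4%) and 177 were lower (4.97%), with a median log2 difference of 0.93. Of the body-column-high sequences 1089 were lower in the head (48.5%) and 284 higher (12.7%), with a median of -1.21. Foot-high shares of reads followed, at 7.38% ± 0.447 in heads (SD, n = 3) and 2.96% ± 0.264 in 80% tips, without overlap. Body-column-high sequences took 5.88% ± 0.273 of head and 10.7% ± 0.782 of 80% tip reads. The share called higher in the head did not grow with the fold in the foot. It was 38.5% for foot-high sequences of 2- to 4-fold, 34.3% for 4- to 16-fold, 35.6% for 16- to 64-fold and 27.2% above that. The median log2 differences between head and 80% tips in these classes were 0.86, 1.09, 1.39 and 0.89.

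Within the column, levels of the body-column-high sequences declined towards the foot. At 0.5 h they took 10.7% ± 0.782 of reads at the 80% level, 9.35% ± 0.373 above the 50% cut and 8.12% ± 0.465 below it. These libraries do not include those that chose the members, and the 3 libraries below the cut lay under all 3 above it. Not all members declined so. In the 1089 also lower in the head the median log2 CPM was 3.09 ± 0.07, 3.06 ± 0.03 and 2.95 ± 0.07 in the same order. The named seq33814_loc13050_tr0362243 had means of 4480, 5750 and 6360 CPM, and was not called between the 80% tips and the lower side. Between 80% tips and the lower side of the 50% cut, 0.52% of all tested sequences were higher at 80%, and 193 of the body-column-high sequences were (8.60%), which is 68.4% of all 282 such calls. By fold between mid-gastric and foot, 2.78% of the 2- to 4-fold members were higher at 80%, 15.3% of the 4- to 16-fold, 28.6% of the 16- to 64-fold and 54.8% (23 of 42) of those above. Foot-high sequences gave 108 of the 164 sequences called lower at 80% (65.9%), or 3.03% of their number against 0.302% of all tested.

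The sides of the 50% cut are adjacent tissue, and at 0.5 h after section few sequences separated them. Basal tips were higher than apical tips in 61 sequences (0.112% of those tested) and lower in 21 (0.0387%). Of the 61, 55 were body-column-high (90.2%), and all 21 of the lower ones were foot-high, while 2 of the 61 were foot-high. The letters A, B and C went together between these tips at 0.5 h, and with the letter as a block 40 sequences were lower, all of them foot-high. At 1 h 71 of 83 higher calls were body-column-high (0.153% of tested were higher) and 34 of 38 lower calls foot-high (0.0700% lower), or 69 of 75 with the block. Among these early calls, body-column-high sequences were mostly the higher ones above the cut and foot-high sequences the higher ones below it.

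**Figure D3:**
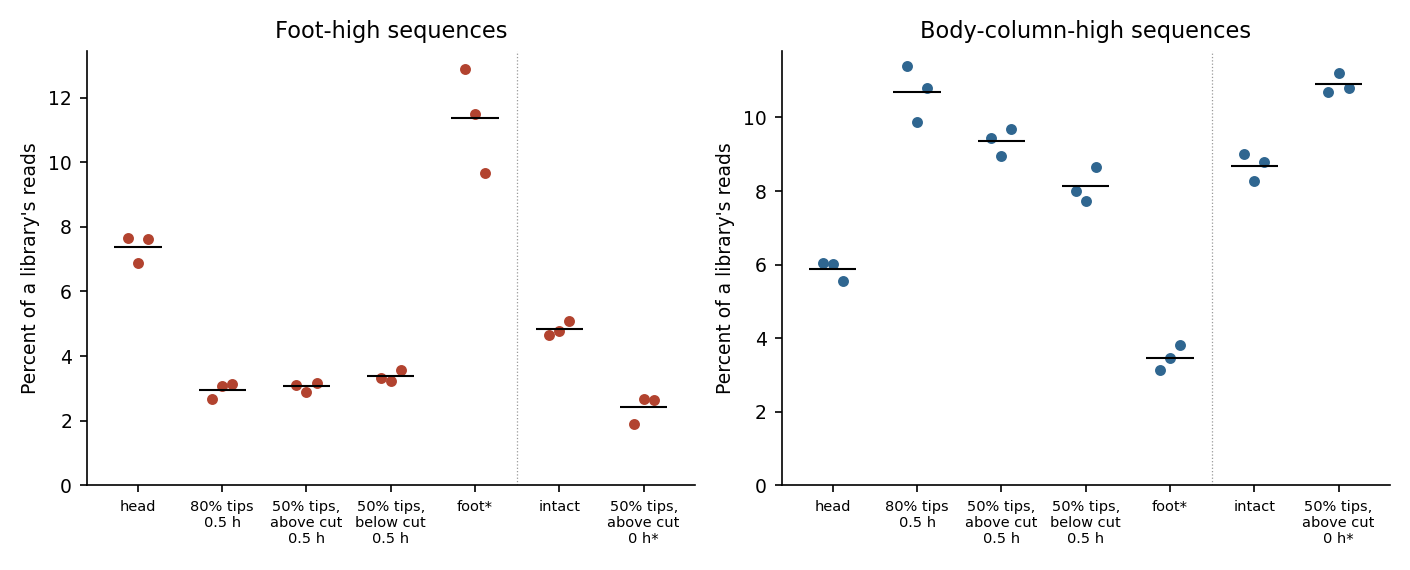
Percent of each library's reads taken by the foot-high (left) and body-column-high (right) sequences, in order along the body axis, then in intact animals and the mid-gastric tips at 0 h; dots are libraries, bars means of 3, and the starred groups chose the members. Body-column-high shares step down from 80% tips to the lower side of the 50% cut, at 10.7%, 9.35% and 8.12%, while foot-high shares are 2.96%, 3.06% and 3.37%.

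In intact animals the foot-high sequences took 4.84% ± 0.219 of their reads and the body-column-high ones 8.68% ± 0.387. Against tips from the lower side of the 50% cut at 0.5 h, 659 foot-high sequences were higher in intact animals (18.5%, with 3.25% of all tested). That share was 9.09% for the 2- to 4-fold members and 88.4% for those above 64-fold. Intact animals include the foot and these tips do not, so an increase with the fold is built into the comparison and is a description. In the same comparison 254 body-column-high sequences were higher (11.3%).

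Some foot-high sequences had few or no reads in other tissues as well. In heads 242 of the 3564 (6.79%) had no more than 3 reads in any library, near the 6.02% of all tested sequences. In tips at 0.5 h the numbers were 423 (11.9%, with 6.31% of all tested) at the 80% level, 441 (12.4%, with 7.02%) above and 397 (11.1%, with 7.20%) below the 50% cut. All of these groups were at that floor in 141 foot-high sequences (3.96%), among 533 of the 54272 tested, and in 0 body-column-high ones. A sequence at the floor in all of them could be tested only through reads in another group, such as the foot. Foot-high sequences were also chosen for lower mid-gastric levels, so their floor counts in column tips are a description. In basal tips at 48 h 37 foot-high sequences (1.04%, with 5.61% of all tested) were at the floor. In apical tips of the 50% level 206 were (5.78%), near the 5.76% of all tested.

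The course of these sequences during regeneration was followed against tips at 0.5 h, so that no library that chose them enters. In basal tips 90 foot-high sequences were higher after 2 h (0.527% of all tested were), 250 after 4 h (1.19%), 229 after 8 h (0.75%) and 368 after 16 h (1.04%). Numbers then grew to 750 (2.08%) after 24 h, 1084 (2.76%) after 36 h and 1272 after 48 h. The last is 35.7% of the foot-high sequences, where 3.30% of all tested were higher, and 70.9% of all 1793 higher calls. In apical tips of the 50% level the number was 50 after 2 h (0.300%), 178 after 4 h (0.816%), 201 after 8 h (0.763%) and 235 after 16 h (0.956%). It reached 352 after 24 h (1.78%), 430 after 36 h (2.44%) and 611 after 48 h (17.1%, with 3.59% of all tested). The basal count was the larger at each of these times, but at 2 and 4 h more of all tested sequences were also higher in basal tips. Foot-high sequences made up 31.5% of all higher calls in basal and 30.7% in apical tips at 2 h. At 4 h they made up 38.6% and 40.2%, and at 48 h 70.9% and 31.4%. The difference between the counts was not tested.

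The ends were also compared directly at each time. At 16 h basal tips exceeded apical tips of the 50% level in 88 foot-high sequences and lay below in 44 (0.387% and 0.361% of all tested), or in 72 with the replicate letter as a block. At 24 h 406 were higher (11.4%, with 1.24% of all tested) and 64 lower (0.831% of all tested). At 36 h the higher ones were 671 (18.8%, with 1.77%), and at 48 h 739 (20.7%, with 2.08%). The 100 lower ones at 48 h are 2.81%, near the 2.59% of all tested. The change from 0.5 to 48 h itself was larger in basal than in apical tips for 497 foot-high sequences (13.9%, with 1.28% of all tested). It was smaller for 61 (1.71%), near the 2.03% of all tested. The larger the fold between foot and mid-gastric column, the more often a sequence was higher in basal tips at 48 h: 9.04% of the 2- to 4-fold members, 23.6%, 45.8% and 82.1% (142 of 173) of those above 64-fold.

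Body-column-high sequences declined in basal tips. Relative to 0.5 h, 51 were lower after 16 h (0.247% of all tested), 151 after 24 h (0.813%), 266 after 36 h (1.01%) and 587 after 48 h (26.1%, with 1.62%). In apical tips of the 50% level at 48 h 181 were lower (8.06%, with 1.20% of all tested) and 279 were higher (12.4%, with 3.59%). Basal tips lay below apical tips in 112 of them at 24 h (0.831% of all tested) and 424 at 48 h (18.9%, with 2.59%), and above in 66 (2.94%, with 1.24%) and 41 (1.83%, near the 2.08% of all tested). With the replicate letter as a block the 41 became 63 (2.81%, with 2.48% of all tested). At 8 h the order had still been that of the starting tissue, with 91 of the 117 sequences higher in basal tips being body-column-high (0.216% of all tested were higher). The interaction was negative for 419 (18.7%, with 2.03% of all tested).

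**Figure D4:**
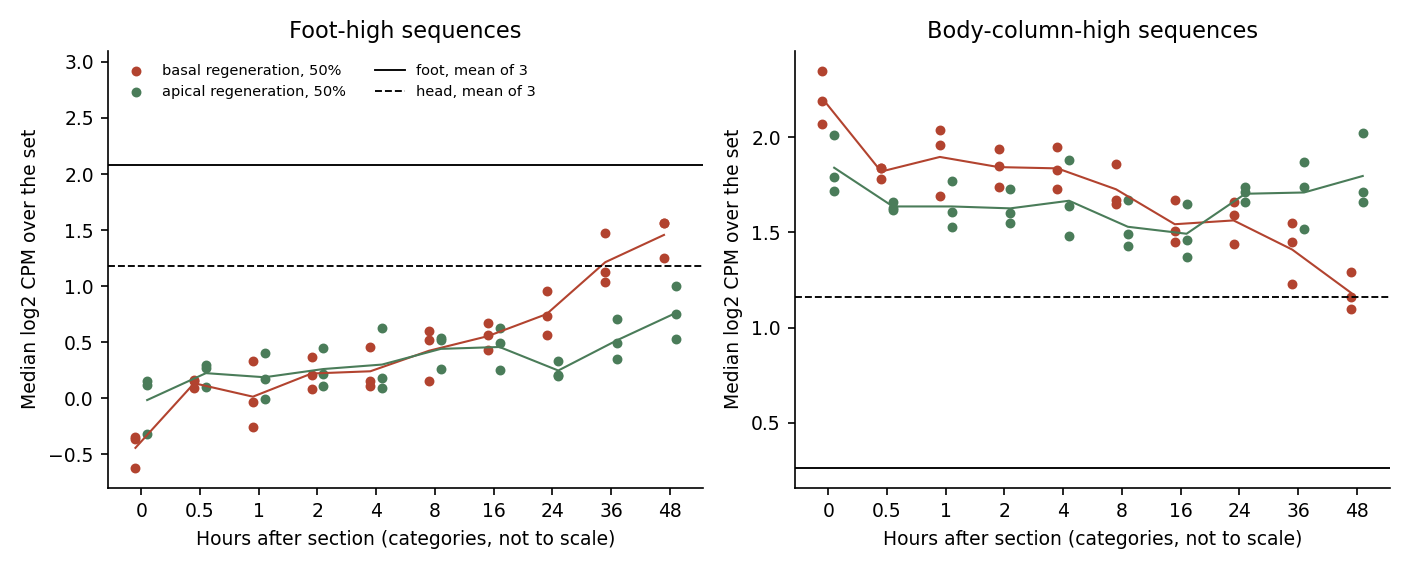
Median log2 CPM over the foot-high (left) and body-column-high (right) sequences in each library of basal and apical tips of the 50% level, over hours after section (equally spaced categories); lines join means of 3 libraries, and horizontal lines mark foot and head means. Basal medians of the foot-high sequences go from 0.13 at 0.5 h to 1.46 at 48 h with the foot at 2.08, and the basal and apical lines of the body-column-high sequences cross between 16 and 24 h.

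In basal tips at 48 h the median level of the foot-high sequences was a log2 CPM of 1.46 ± 0.18 (2.08 ± 0.19 in the foot), and that of the body-column-high sequences 1.18 ± 0.10 (0.26 ± 0.08 in the foot). The foot values are those that chose the members, which sets them apart from other tissues by choice, so the distance left to the foot was not tested. Their shares of reads at 48 h were 8.14% ± 0.562 and 5.62% ± 0.56. The comparisons of foot, mid-gastric tips and 48 h basal tips share libraries with the one that chose the members, so their medians are set side by side. For foot-high sequences the median log2 difference was 2.08 between foot and mid-gastric tips, 1.56 between 48 h and 0 h basal tips and 0.49 between foot and 48 h basal tips. For body-column-high sequences the same medians were -1.75, -1.04 and -0.81. The 0 h tips chose the members too, which sets them apart from later tips by choice. Against basal tips at 0.5 h, the foot-high median was 0.97 in 48 h basal tips and 1.54 in the foot. The body-column-high medians were -0.63 and -1.48. With apical tips of the 50% level at 0 h in place of basal ones, 4423 sequences were called between foot and column (8.15% of those tested, 2743 higher and 1680 lower). With basal tips at 0.5 h they were 4261 (7.85%, 2659 higher and 1602 lower).

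Level in the head divided the members by how the ends of the 50% cut came to differ. The 1299 foot-high sequences that were also higher in the head rose in basal (631, 48.6%) and apical tips (496, 38.2%) between 0.5 and 48 h, and at 48 h 199 of them were higher in basal (15.3%) and 90 in apical tips (6.93%). Of the 2088 foot-high sequences not called in the head, 572 rose in basal (27.4%) and 111 in apical tips (5.32%, not far from the 3.59% of all tested). The 177 that were lower in the head rose in 69 cases in basal tips (39.0%), fell in 55 in apical tips (31.1%), and at 48 h 93 (52.5%) were higher in basal tips, with a median log2 difference of 1.37. Of all tested sequences 3.30% rose in basal tips from 0.5 to 48 h, while 3.59% rose and 1.20% fell in apical tips. At 48 h 2.08% of all tested were higher and 2.59% lower in basal than in apical tips.

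The body-column-high sequences were divided in the same manner. Of the 1089 that were also lower in the head, 274 fell in basal (25.2%, with 1.62% of all tested) and 163 in apical tips (15.0%, with 1.20%). At 48 h 35 of them were higher in basal than in apical tips (3.21%, with 2.08% of all tested) and 26 lower (2.39%, near the 2.59% of all tested). With the replicate letter as a block the higher ones were 54 (4.96%, with 2.48% of all tested). Of the 872 not called in the head, 227 fell in basal tips (26.0%), 105 rose in apical tips (12.0%, with 3.59% of all tested) and 191 were lower in basal than in apical tips at 48 h (21.9%). The 284 that were higher in the head rose in apical tips in 164 cases (57.7%) and fell in basal tips in 86 (30.3%). At 48 h 207 of them were lower in basal tips (72.9%), with a median log2 difference of -2.01. Their median level was a log2 CPM of 1.16 ± 0.05 in mid-gastric tips at 0 h, 0.04 ± 0.12 in basal and 2.40 ± 0.25 in apical tips at 48 h, 4.15 ± 0.25 in heads and -0.69 ± 0.13 in the foot.

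**Figure D5:**
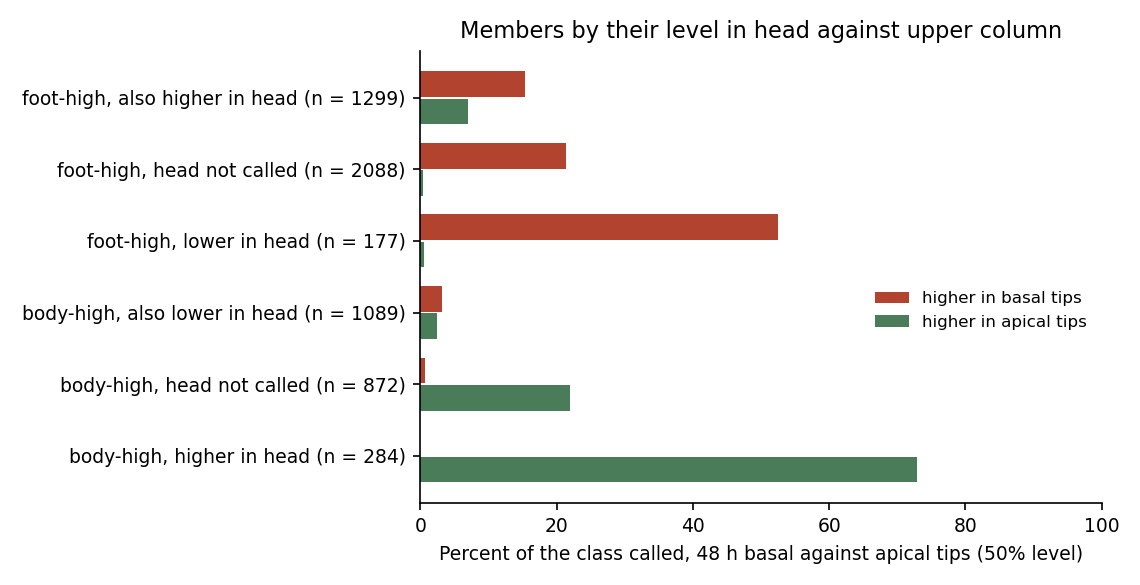
Percent of each class of members called higher in basal or in apical tips of the 50% level at 48 h, with classes set by head against 80% tips at 0.5 h and n the number of sequences. The longest bars are those of foot-high sequences lower in head (52.5% higher in basal tips) and of body-column-high sequences higher in head (72.9% higher in apical tips).

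Traces of the most foot-biased sequences turned up in regenerating tips unevenly. The 88 foot-high sequences at the floor in mid-gastric tips with a bound of 64-fold or more summed to between 1.51 and 1.80 CPM in those 3 libraries, which the choice fixes. In other basal tips from 0.5 to 16 h they summed to between 6.02 and 218 CPM, with a median of 55.6 CPM. Over all times from 0 to 48 h, a longer span, the medians in apical tips of the 50% and 80% levels were 72.3 and 42.0 CPM, with ranges of 17.5 to 245 and 2.43 to 263. At 2 h basal libraries A, B and C held 107, 218 and 54.2 CPM, and library A held the most of both named foot-high sequences. Of the 90 foot-high sequences called at 2 h, 67 were among the 72 called without library A, and 73 among the 87 called without B. Basal tips at 48 h held 2280 to 3200 CPM, feet 2700 to 5920, intact animals 485 to 592 and heads 212 to 258 CPM. The part of such traces in the early counts was not tested.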

How the data were processed

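The authors' deposited table of raw counts, whole numbers for 79774 transcript sequences, was used. The authors' second table, a normalized signal for 40479 of these sequences, entered an alternative alone. The submitters' processing notes name cutadapt 1.11, Salmon 0.7.2 and DESeq2, with no role or order. The reference, its build and any filter are not given in the sources used here. Every column of both tables could be mapped to a library, and 0 were left unassigned. No identifier matched the RefSeq gene table of the assembly HydraT2T_AEP, so marker lists of foot, head, nematoblasts, gland cells and other cells could not be looked up.

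The tests were run with edgeR 4.0.16 under R 4.3.3. Sequences were kept by filterByExpr over 33 groups (99.9% of reads) and libraries scaled by TMM (factors 0.88 to 1.15). All 99 libraries entered 1 quasi-likelihood model (legacy method, trended dispersion) with a coefficient per group, and contrasts were tested two-sided with Benjamini-Hochberg adjustment over all tested sequences. The standard error is the log2 difference divided by the square root of F. On counts simulated for this comparison, 41 and 28 of 50 sequences raised and lowered 4-fold were called, 11 and 7 of 50 changed 2-fold, and 2 of 54072 unchanged ones. The simulated counts were independent and followed the trended dispersion alone, which the refit reused. Changed sequences were drawn from those of at least 1 CPM, and no library was made to stand apart as mid-gastric A does. These rates therefore need not hold for the real libraries. Most tested sequences (85.7%) share a locus with others and are not independent. Named sequences are, in each direction, the largest log2 difference among those with a mean of at least 32 CPM in the higher group and alone in their locus, and the largest difference in mean CPM. Both needed a call and groups that do not overlap. Same-lettered libraries of the foot and mid-gastric groups deviated with r of -0.336, -0.316 and 0.246 for A, B and C, so letters were not taken as pairs there. Between basal and apical tips of the 50% level at 1 time, same-lettered libraries deviated together, with r from 0.0926 to 0.752 and all 3 above 0.1 at 9 of 10 times. A fit with the letter as a block within each time was therefore added after the data were seen, for contrasts within a time and their interaction, and its values stand where a count moved by over 1.5 times. Alternatives were RLE scaling, DESeq2 1.42.0, limma 3.58.1 on log2 of the authors' normalized signal plus 1 or 5, the newer edgeR method, no filter, the 6 libraries alone, a replicate block, other fold minimums and left-out replicates. The members, sets and tests were chosen with earlier results of these data known. Figures were drawn with matplotlib 3.10.9.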

Additional observations from a re-analysis of the deposited data

Results flagged for a closer look

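A pair of named sequences changed differently at the ends of the 50% cut, in libraries that had no part in their choice. For seq03962_loc02149_vl0008526 the log2 change from 0.5 to 48 h was larger in basal than in apical tips by 5.47 (edgeR interaction test, adjusted p = 0.00019), with 9.30 and 3.83 at the respective ends. For seq44859_loc16361_vl0137933 the difference was -3.28 (adjusted p = 3.79e-07), with -1.59 in basal and 1.70 in apical tips.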

How the results depend on the processing

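The count of 5809 called sequences stayed within 1.5 times its value under RLE scaling (5829), DESeq2 (6604), limma on the normalized signal (6247 and 6139 with pseudocounts of 1 and 5), the newer edgeR method (7136), no filter (5523) and the 6 libraries alone (4000). Letters did not pair foot and mid-gastric libraries. With a replicate block over all 99 libraries 6249 sequences were called, and with a replicate block in the 6 libraries alone 1336 were (875 higher, 461 lower). Under the latter seq33814_loc13050_tr0362243 missed the threshold (adjusted p = 0.0915, edgeR), while the other named sequences kept direction and call in every alternative tried. Without a fold minimum 11325 sequences (49.1% higher in the foot, against 61.4%) and 7988 loci were called, and with a fitted log2 difference of at least 2, 2757 sequences, with 47 loci of opposite calls. Members past that limit were called less often in head against 80% tips (33.3% of foot-high higher, 40.6% of body-column-high lower) and more often in the other shares recomputed. Body-column-high ones were higher at 80% than below the 50% cut in 17.7% and higher above than below the 50% cut at 0.5 h in 5.90%, and foot-high ones were lower at 80% in 4.57% and higher in basal than apical tips at 48 h in 31.1%. Leaving out libraries gave 3983 to 5935 sequences, the lowest without replicate A of both groups, and 2662 to 3045 loci. The 2 h share of foot-high sequences was 2.02% and 2.44% without basal library A and B, both chosen after seeing the data. With the replicate block within each time, also added after, 22.1% of foot-high sequences were higher and 19.6% of body-column-high ones lower in basal tips at 48 h. There the body-column-high sequences higher in basal tips became 63 in place of 41, 54 in place of 35 among those lower in the head, and no named sequence's interaction changed its call. Fits with a block over 99 libraries or with libraries left out keep the filter and dispersion trend of all libraries, while fits of the 6 libraries alone filtered anew. Comparisons between times have no block.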
